A study of Mus musculus with 8 samples.

Results

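The opioid family examined here comprises 7 genes: the peptide precursors Pdyn (prodynorphin), Penk (proenkephalin) and Pnoc (prepronociceptin), and the receptors Oprm1 (mu), Oprd1 (delta), Oprk1 (kappa) and Oprl1 (nociceptin). They were picked by gene symbol, as 7 of the 32531 genes counted in each library. RNA bound to ribosomes was immunopurified from dorsal striatum (4 libraries) and nucleus accumbens (4 libraries) of mice older than 20 months that carried the Drd1-EGFP/Rpl10a transgene of line CP73, and both regions had the same genotype, age class and no treatment. The transgene puts a green fluorescent protein tag on the ribosomal protein L10a under control of Drd1 sequences, so that ribosomes of cells expressing the dopamine D1 receptor can be pulled down with antibodies to the tag. A single transgenic line was used, RNA of unpurified tissue and young animals are not analysed here, and the labels number the libraries of each region 1 to 4 and leave unsaid if a library is from a single mouse or from pooled mice. The p-values therefore measure the spread between these samples.

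Opioid peptides are cut from large precursor proteins inside dense core vesicles and act on inhibitory G protein-coupled receptors, which lower cyclic AMP, open inward rectifier potassium channels and close calcium channels. Dynorphins prefer the kappa receptor, enkephalins the delta and mu receptors, and nociceptin its own receptor. In the striatum, prodynorphin is a classical product of direct-pathway spiny projection neurons, which carry the D1 receptor, and proenkephalin of indirect-pathway neurons, which carry the D2 receptor.

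Gene counts per library ran from 7466970 to 10363145 in dorsal striatum and from 10831937 to 12639641 in accumbens. Drd1 itself averaged 605 ± 60.9 CPM (SD, n = 4; CPM are counts per 1000000 reads of the effective library size) in dorsal striatum and 435 ± 86.5 (n = 4) in accumbens, a log2 fold change of accumbens over dorsal striatum of -0.47 ± 0.14 (SE) with an edgeR adjusted p of 0.0750. This difference was called by DESeq2 (adjusted p = 0.0329) and by limma-voom (adjusted p = 0.0187). Of 17 alternative settings 5 called it, among them 1 of the 8 fits that left out 1 library. With glial marker level as a covariate it was -0.39 (edgeR adjusted p = 0.671). The 11 spiny projection neuron markers summed to 15056 to 17136 CPM in dorsal striatum and to 12314 to 14240.0 CPM in accumbens, and 4 of the 11 were called lower in accumbens. The 8 direct-pathway markers, the class the tag targets, summed to 2112 to 2497 CPM in dorsal striatum and to 1556 to 1815 CPM in accumbens without overlap, with 2 of the 8 called lower in accumbens and 7 of the 8 log2 fold changes negative. The 7 indirect-pathway markers summed to 343 to 385 CPM in dorsal striatum and to 499.8 to 564 CPM in accumbens, 2 of the 7 being called higher in accumbens. Most of these sums came from Gucy1a3, at 291 ± 22.0 and 385 ± 44.1 CPM (SD, n = 4 each), which was not called (edgeR adjusted p = 0.0953). The 10 astrocyte markers summed to 306 to 484.3 CPM against 483.8 to 902 CPM, a slight overlap, with 2 of 8 tested called higher in accumbens. In these bulk samples fewer cells of a type, less RNA per cell and a different share of RNA from cells without the transgene cannot be told apart.

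Of the 7 genes, 6 had enough reads to be tested. Pdyn, Penk and Oprd1 were called higher in accumbens by edgeR's quasi-likelihood test (Benjamini-Hochberg adjusted p under 0.05), and none was called higher in dorsal striatum. Among all 12467 genes tested, 3.72% were called, 1.6% as higher in accumbens and 2.12% as higher in dorsal striatum. The same 3 genes were those whose 4 accumbens libraries all lay above all 4 dorsal libraries, a pattern held by 4.51% of the genes tested. Oprm1, Oprk1 and Oprl1 did not pass the test, and Pnoc was at or near 0 counts throughout.

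**Figure D1:**
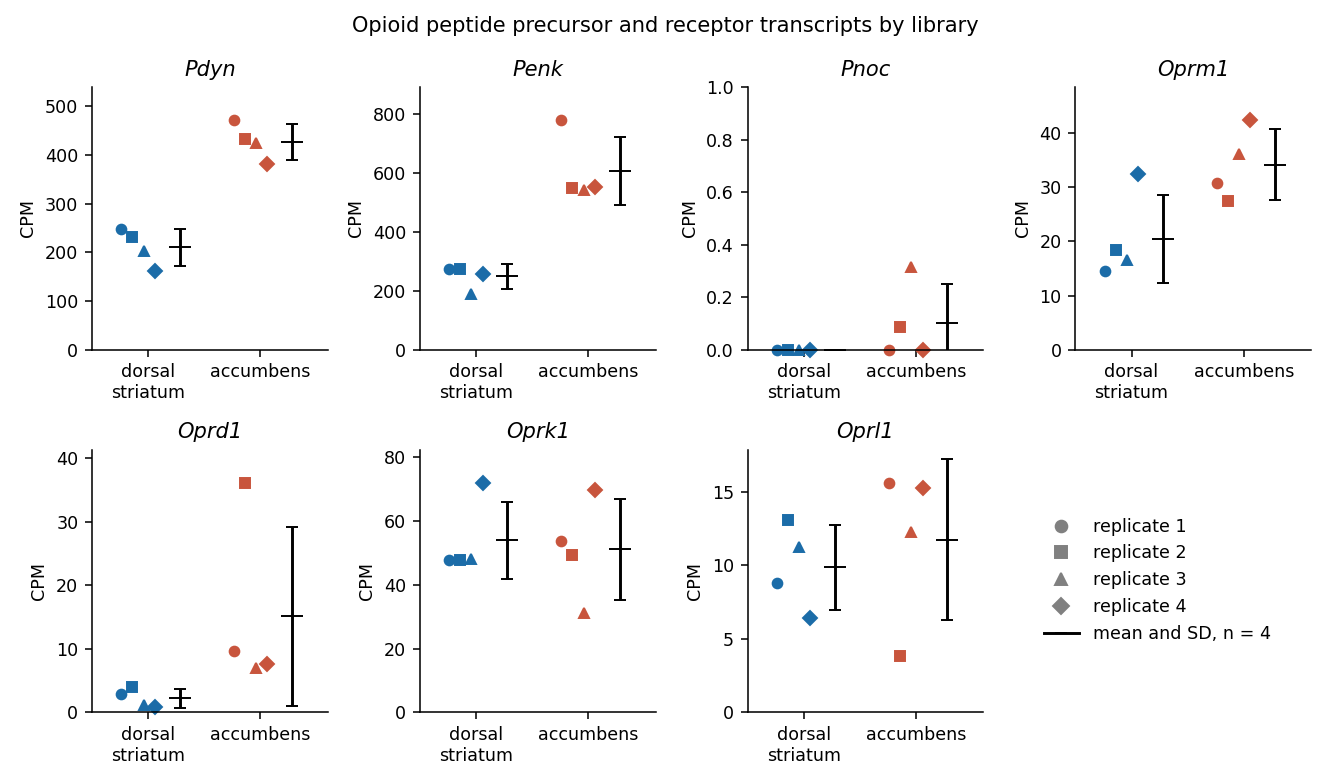
Expression of the 7 opioid genes in each library, in CPM on a linear axis that starts at 0, with points for the 4 dorsal striatum and 4 accumbens libraries and the mean and SD of each region. Penk in accumbens lies between 543 and 779 CPM, above its highest dorsal value of 275 CPM, and Oprd1 in accumbens contains 1 library at 36.2 CPM beside 3 between 7.03 and 9.69 CPM.

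Pdyn encodes the precursor of the dynorphins and neoendorphins and lies at chr2:129686565-129699844 on the minus strand (GENCODE M21, mm10 coordinates). In dorsal striatum it measured 247, 232, 203 and 161 CPM in libraries 1 to 4. In accumbens it measured 472, 432, 425 and 381 CPM. The lowest accumbens library stood above the highest dorsal library by more than 100 CPM, so the regions did not overlap. The mean was 211 ± 37.9 CPM (SD, n = 4) in dorsal striatum and 427 ± 37.2 CPM (n = 4) in accumbens, a log2 fold change of 1.02 ± 0.14 (SE; 95% confidence interval 0.72 to 1.32; edgeR adjusted p = 0.00037). The call held under each of the 17 alternative settings, with log2 fold changes from 0.79 to 1.10. The lowest of these came from a fit with glial marker level as a covariate (edgeR adjusted p = 0.0475). Markers of the striatal compartments also differed between regions. Of 8 markers of striosomes, a compartment known for prodynorphin, 4 were called higher in accumbens (Nnat 2.54, Kcnip1 2.96, Lypd1 1.20 and Sema5b 1.06 on the log2 scale). None was called lower, though Kremen1 (-2.04, edgeR adjusted p = 0.0533), Bach2 (-0.82) and Sepw1 (-0.35) had negative log2 fold changes. The sums of all 8 were 527 to 817 CPM in dorsal striatum and 816 to 901 CPM in accumbens, which overlapped. Of 6 matrix markers, 4 were called lower, among them Calb1 at -1.28, and 1 higher, Gda at 0.76, with overlapping sums of 953 to 1135 and 834 to 1171 CPM. Their part in the Pdyn difference was not tested.

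Penk encodes the enkephalin precursor and lies at chr4:4133531-4138819 on the minus strand. In dorsal striatum it measured 275, 274, 189 and 256 CPM. In accumbens it measured 779, 550.3, 543 and 552 CPM. Again no accumbens library came near a dorsal one, and accumbens library 1 stood apart from the other 3, which were within 10 CPM of each other. The mean was 248 ± 40.9 CPM (SD, n = 4) in dorsal striatum and 606 ± 115 CPM (n = 4) in accumbens, a log2 fold change of 1.29 ± 0.15 (SE; 95% confidence interval 0.96 to 1.61; edgeR adjusted p = 7.87e-05). Leaving out any single library gave log2 fold changes from 1.15 to 1.34, all called, and the fit with glial marker level as a covariate gave 1.09 (edgeR adjusted p = 0.0146). A noncoding gene on the opposite strand, A830012C17Rik, shares 233 of the 1634 exon bases of Penk. It has no row in the count tables, and with the strand setting of the counting not given, reads of the pair cannot be told apart.

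Pnoc encodes the nociceptin precursor, which in the striatum is known from scattered interneurons, and lies at chr14:65400673-65425472 on the minus strand. It had 0 reads in all 4 dorsal libraries and 0, 1, 4 and 0 reads in accumbens libraries 1 to 4. A count of 0 allows up to 3 reads, which at these depths is between 0.237 and 0.415 CPM per library. Pnoc was thus at or about the limit of detection in both regions, no fold is given, and the gene was left out of the test. Pomc, the precursor of beta-endorphin, had 7, 16, 2 and 1 reads in the dorsal libraries and 11, 30, 5 and 12 in the accumbens libraries. Its log2 fold change was 0.75 ± 1.03 (SE; edgeR adjusted p = 0.815), so no difference was detectable at this depth.

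The opioid core is written several times into a precursor's coding sequence, and the copies are shown here because the number and kind of cores set which peptides a transcript can give. Each line gives 27 bases of coding sequence, 5′ to 3′, from the GENCODE M21 transcripts Pdyn-201, Penk-201 and Pnoc-201. The 15 capitals are the 5 codons of the core, which read tyrosine, glycine, glycine, phenylalanine and then leucine or methionine in Pdyn and Penk. The number is the position of the core's first base, counted from 1 at the A of the start codon.
Pdyn 496: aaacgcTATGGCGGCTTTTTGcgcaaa
Pdyn 604: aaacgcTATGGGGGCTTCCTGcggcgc
Pdyn 661: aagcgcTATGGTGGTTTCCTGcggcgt
Penk 298: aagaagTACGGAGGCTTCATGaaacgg
Penk 319: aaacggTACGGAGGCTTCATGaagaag
Penk 406: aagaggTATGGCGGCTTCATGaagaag
Penk 559: aagaggTATGGGGGCTTCATGagaagc
Penk 631: aagcgcTACGGGGGCTTCATGagaagg
Penk 691: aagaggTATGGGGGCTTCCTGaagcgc
Penk 784: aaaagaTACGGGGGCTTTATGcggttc
Pnoc 421: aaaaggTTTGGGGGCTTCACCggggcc
The Pdyn coding sequence of 744 bases holds 3 cores, and all 3 end in a leucine codon. The Penk coding sequence of 804 bases holds 7, of which 6 end in a methionine codon and 1 in a leucine codon. The single Pnoc core opens with a phenylalanine codon in place of tyrosine. In each line the 6 bases before the capitals are a pair of codons for basic residues, lysine or arginine, at which prohormone convertases cut. The counts cover the whole gene, and peptide copies were not measured.

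Since Pdyn marks D1 neurons and Penk D2 neurons, each precursor was also set against markers of its own cell class within each library, as a log2 ratio of CPM values. Apart from the 0.5 CPM added to each value, which weighs most where a gene is low, such a ratio does not depend on library scaling. The log2 ratio of Pdyn to Drd1 was -1.36, -1.20, -1.51 and -2.05 in the dorsal libraries. In the accumbens libraries it was 0.09, -0.36 and 0.22 in libraries 1 to 3, and within 0.01 of 0 in library 4. The regions did not overlap, and the mean difference was 1.52 ± 0.22 (SE), with an exact permutation p of 0.0286 (two-sided, the smallest that 4 against 4 libraries can give) or 0.0714 after Benjamini-Hochberg adjustment over the 5 ratios. The log2 ratio of Pdyn to Tac1, the substance P precursor that direct-pathway neurons also make, was -0.39, -0.36, -0.31 and -0.93 in dorsal striatum. In accumbens it was 0.29, 0.65, 0.69 and 0.34, again without overlap. This difference was 0.99 ± 0.18 (SE; exact permutation p = 0.0286, adjusted p = 0.0714). Tac1 itself averaged 295 ± 30.5 CPM (SD, n = 4) in dorsal striatum and 306 ± 55.6 CPM (n = 4) in accumbens, a log2 fold change of 0.05 ± 0.14 (SE; edgeR adjusted p = 0.929).

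Penk was not separated from its class markers in this way. Drd2, the D2 receptor, measured 25.8 ± 7.97 CPM in the dorsal and 56.0 ± 11.7 CPM in the accumbens libraries (SD, n = 4 each), a log2 fold change of 1.11 ± 0.25 (SE; edgeR adjusted p = 0.0167). Adora2a, an adenosine receptor of the same neurons, measured 8.04 ± 2.27 and 21 ± 5.10 CPM, a log2 fold change of 1.38 ± 0.34 (SE; edgeR adjusted p = 0.0292). Both were called higher in accumbens, as Penk was, though Drd2 lost its call without accumbens library 1 (adjusted p = 0.0759), without dorsal library 3 (0.0509) or without dorsal library 4 (0.0569). Adora2a lost its call in 6 of the 8 fits that left out a library, with adjusted p up to 0.101. With glial marker level as a covariate neither was called (Drd2 0.73, adjusted p = 0.578, and Adora2a 1.07, adjusted p = 0.590). Penk to Drd2 log2 ratios ran from 3.06 to 3.53 in dorsal striatum and from 3.29 to 3.53 in accumbens, and the difference of 0.15 ± 0.13 (SE) had an exact permutation p of 0.314 (adjusted 0.393). Penk to Adora2a log2 ratios ran from 4.76 to 5.18 in dorsal striatum and from 4.55 to 5.25 in accumbens, and the difference of -0.06 ± 0.18 (SE) had an exact permutation p of 0.714 (adjusted 0.714). Its sign turned without dorsal library 3, accumbens library 2 or accumbens library 4. The share of Penk, Drd2 and Adora2a RNA that came from cells without the transgene was not tested.

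**Figure D2:**
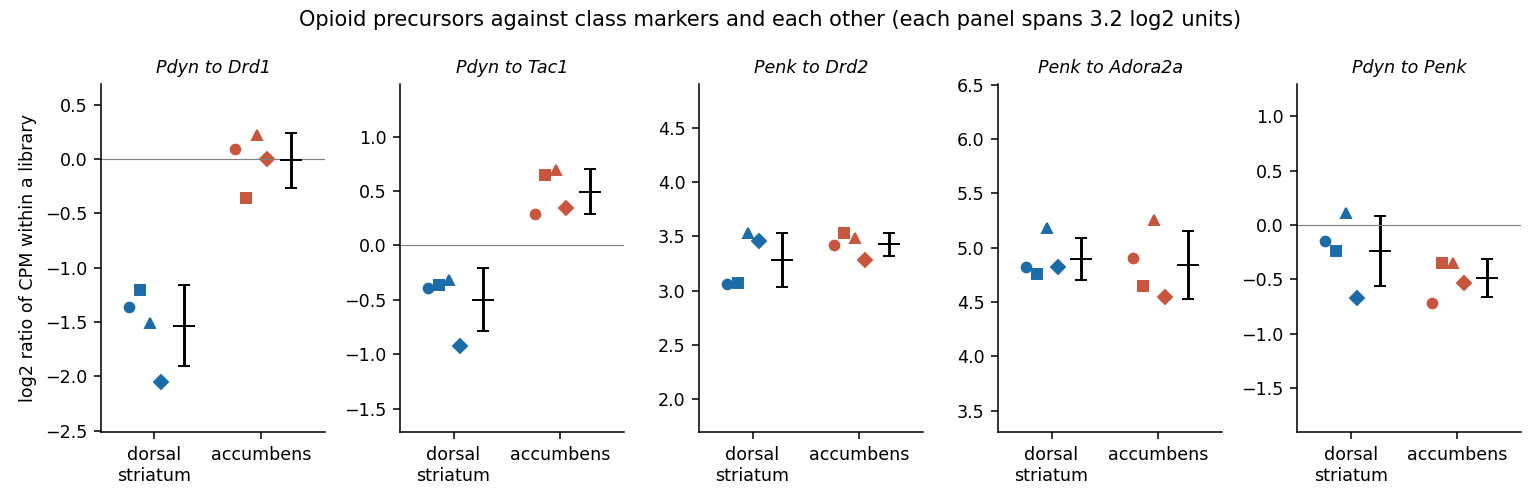
Log2 ratios within each library of Pdyn to Drd1, Pdyn to Tac1, Penk to Drd2, Penk to Adora2a and Pdyn to Penk, with points for the 4 libraries of each region and bars for their mean and SD. The Pdyn ratios to Drd1 and Tac1 do not overlap between regions, and the other 3 do.

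The balance of the precursors against each other overlapped between regions. Pdyn to Penk log2 ratios were -0.15, -0.24, 0.11 and -0.67 in the dorsal libraries and -0.72, -0.35, -0.36 and -0.53 in the accumbens libraries. The difference of -0.25 ± 0.18 (SE) had an exact permutation p of 0.229 (adjusted 0.381).

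Oprm1 encodes the mu receptor, the main target of morphine, and lies at chr10:6758506-7038198 on the plus strand. It measured 14.6, 18.4, 16.6 and 32.4 CPM in dorsal striatum. In accumbens it measured 30.8, 27.4, 36.0 and 42.4 CPM. Dorsal library 4 lay among the accumbens libraries and the other 3 dorsal libraries lay below all of them. Means were 20.5 ± 8.11 CPM (SD, n = 4) and 34.1 ± 6.55 CPM (n = 4), a log2 fold change of 0.74 ± 0.28 (SE; 95% confidence interval 0.14 to 1.33) that did not pass the test (edgeR unadjusted p = 0.0186, adjusted p = 0.202). It passed in limma-voom with quality weights (0.91, adjusted p = 0.0474) and in edgeR without dorsal library 4 (1.05, adjusted p = 0.0482). Ipcef1 on the opposite strand shares 96 of the 8037 bases in exons of any Oprm1 transcript, coding or not, and was itself called higher in accumbens, at 12.3 ± 6.18 CPM against 42.6 ± 13.9 CPM (n = 4 each; edgeR adjusted p = 0.0119). Its part in the Oprm1 counts was not tested.

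Oprd1 encodes the delta receptor, to which enkephalins bind with high affinity, and lies at chr4:132110726-132144486 on the minus strand. It had few reads in dorsal striatum, at 25, 37, 8 and 9 reads, or 2.96, 3.92, 1.11 and 0.887 CPM. In accumbens it had 108, 424, 89 and 91 reads, or 9.69, 36.2, 7.03 and 7.53 CPM. Every accumbens library was above every dorsal one, but accumbens library 2 was over 3 times as high as the next. Means were 2.22 ± 1.47 CPM (SD, n = 4) and 15.1 ± 14.1 CPM (n = 4), a log2 fold change of 2.76 ± 0.63 (SE; 95% confidence interval 1.42 to 4.09; edgeR adjusted p = 0.0174).

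The Oprd1 call rested on single libraries more than those of the precursors. Without accumbens library 2 the log2 fold change was 1.86 (edgeR adjusted p = 0.134), without dorsal library 3 it was 2.54 (0.0635), and without dorsal library 4 it was 2.49 (0.0624). The call held in 11 of the 17 alternative settings, and the log2 fold change was positive in all 17, from 1.64 to 3.19. With glial marker level as a covariate it was 2.02 with an adjusted p of 0.479. Markers of interneurons and cortical neurons, which are known to express Oprd1, also differed between libraries. The 11 GABA interneuron markers summed to 86.7, 146, 44.5 and 62.6 CPM in the dorsal libraries and to 148, 171, 137 and 80.4 CPM in the accumbens libraries, with 0 of 6 tested called. The 6 markers of excitatory neurons summed to 63.3, 109, 13.3 and 4.43 CPM and to 85.0, 100.1, 90.6 and 23.8 CPM, with 0 of 5 tested called. In both lists library 2 had the highest sum of its region, as it had the highest Oprd1 level. Across the 4 dorsal libraries the excitatory sums had the same order as the Oprd1 levels, while the GABA interneuron sum was lowest in library 3. Accumbens library 2 stood at 171 beside 148 CPM and at 100.1 beside 90.6 CPM, while for Oprd1 it stood at 36.2 beside 9.69 CPM. The lowest accumbens sum of both lists was in library 4, and the lowest accumbens Oprd1 level in library 3. Of the 5 cholinergic interneuron markers, Slc18a3 was at 0 in all 8 libraries, and the list summed to 1.18, 5.09, 3.18 and 10.2 CPM in the dorsal libraries and to 5.92, 9.64, 25.7 and 12.3 CPM in the accumbens libraries. In this list dorsal library 4 and accumbens library 3 were highest. The part of these cells in the Oprd1 result was not tested.

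Oprk1 encodes the kappa receptor, the receptor of dynorphins, and lies at chr1:5588466-5606131 on the plus strand. It measured 47.9, 47.6, 48.1 and 72.0 CPM in dorsal striatum. In accumbens it measured 53.8, 49.5, 31.3 and 69.7 CPM. The regions overlapped, with the highest of the 8 values in dorsal library 4 and the lowest in accumbens library 3, below every dorsal library. The log2 fold change was -0.08 ± 0.24 (SE; 95% confidence interval -0.59 to 0.43; edgeR adjusted p = 0.936). The interval leaves out a 2-fold difference in either direction. Pdyn, its ligand's precursor, differed by about that size between the same libraries.

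Oprl1 encodes the nociceptin receptor and lies at chr2:181715016-181720985 on the plus strand. It measured 8.76, 13, 11.2 and 6.41 CPM in dorsal striatum. In accumbens it measured 15.6, 3.84, 12.3 and 15.2 CPM. The accumbens libraries spread more widely than the dorsal ones and enclosed them. The log2 fold change was 0.25 ± 0.44 (SE; 95% confidence interval -0.67 to 1.17; edgeR adjusted p = 0.864), so a 2-fold difference was not excluded by its interval. Oprl1 thus had reads in all 8 libraries of both regions, whereas its ligand's precursor Pnoc had none in 6 of them.

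**Figure D3:**
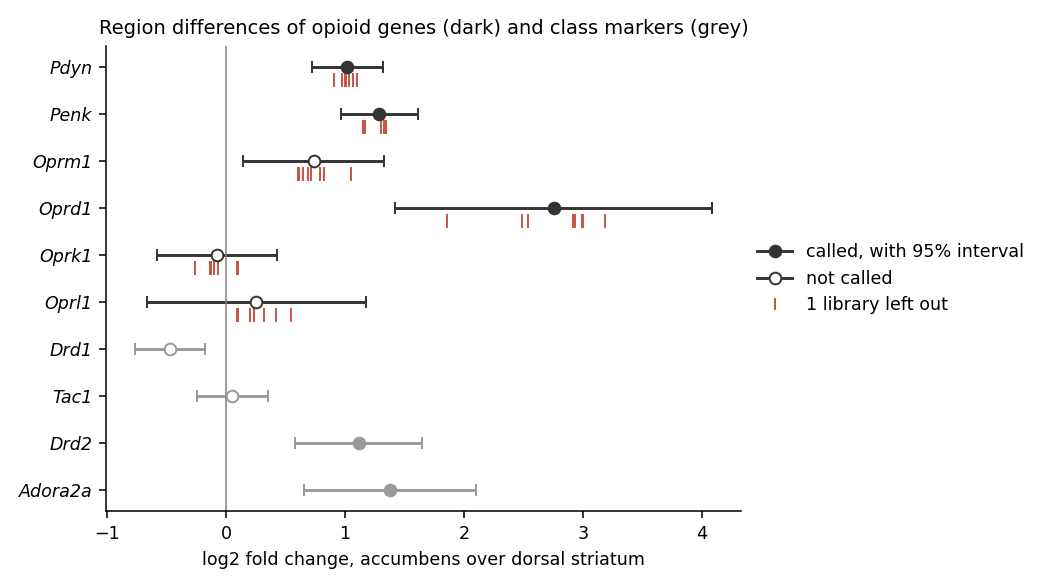
Log2 fold change of accumbens over dorsal striatum for the 6 opioid genes tested (dark) and the class markers Drd1, Tac1, Drd2 and Adora2a (grey), with 95% confidence intervals from the edgeR fit to 8 libraries. Filled points were called, and ticks below the opioid genes give the fits with 1 library left out. Of the opioid genes, Pdyn, Penk and Oprd1 were called, and the interval of Oprd1, from 1.42 to 4.09, is the widest of the 3. Of the markers, Drd2 and Adora2a were called.

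The spread between libraries differed across the family with abundance. The biological coefficient of variation, the replicate spread beyond counting error, was estimated at 0.156 for Pdyn, 0.166 for Penk, 0.248 for Oprk1, 0.289 for Oprm1, 0.440 for Oprl1 and 0.576 for Oprd1. Over all tested genes it was 0.415. Pdyn and Penk were near the values fitted for genes of their abundance, 0.163 and 0.159, and Oprd1 was above its fitted value of 0.478. The estimate of each gene is drawn toward its fitted value, so nearness to it is partly built in.

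To compare levels between genes, CPM was divided by the length in kb that the exons of a gene's coding transcripts cover together. On this scale of level per kb Penk was the highest of the family in both regions, at 152 ± 25.0 CPM per kb (SD, n = 4) in dorsal striatum and 371 ± 70.6 (n = 4) in accumbens. It ranked at place 195 of 11241 tested genes in dorsal striatum and at place 43 in accumbens. Pdyn was next at 86.9 ± 15.6 and 176 ± 15.4 CPM per kb, at places 444 and 143. Both precursors thus belonged to the more abundant transcripts in RNA pulled down with a tag driven by Drd1 sequences. Oprk1 had the highest mean of the receptors, at 11.3 ± 2.53 and 10.7 ± 3.31 CPM per kb. Below it, in dorsal striatum, Oprm1 at 3.03 ± 1.20 and Oprl1 at 2.94 ± 0.863 overlapped, and Oprd1 at 0.552 ± 0.365 lay under both. In accumbens Oprm1 at 5.04 ± 0.967, Oprd1 at 3.76 ± 3.50 and Oprl1 at 3.50 ± 1.63 all overlapped with their neighbours in this order, and Oprd1 in accumbens library 2, at 8.99, lay above the lowest Oprk1 value of 6.56. Pnoc was last in both regions. The order of the receptors depends on the length used in both regions. The 17 coding transcripts of Oprm1, for example, have a median length of 1.50 kb while their exons together cover 6.77 kb. Per median transcript in dorsal striatum, Oprm1 at 13.7 ± 5.41 overlapped with Oprk1 at 21.7 ± 4.86. It lay above Oprl1 at 4.735 ± 1.39 without overlap. In accumbens the mean of Oprl1, 5.64 ± 2.63, was then above that of Oprd1, 3.76 ± 3.50, and their ranges overlapped. Per median transcript, Oprm1 at 22.8 ± 4.37 CPM per kb and Oprk1 at 20.6 ± 6.37 overlapped in accumbens, and the ranges of Penk and Pdyn overlapped in dorsal striatum, though Penk was above Pdyn in each of the 4 libraries.

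**Figure D4:**
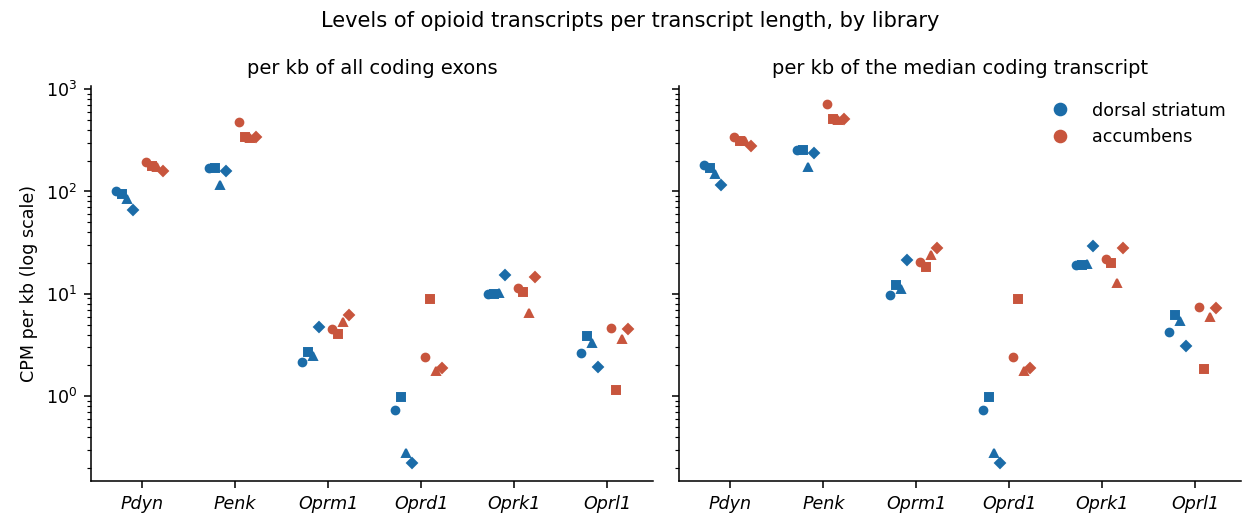
Level of the 6 opioid genes with reads in all libraries, in CPM on log axes, per kb covered by the exons of coding transcripts (left) or per kb of the median coding transcript (right), with points for the 4 libraries of a region. Penk and Pdyn lie above the 4 receptors in both panels, and in accumbens the order of the Oprk1 and Oprm1 means differs between panels, while in dorsal striatum Oprk1 is above Oprm1 in both.

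The 250 bases upstream of an annotated start were examined for the genes called higher in accumbens that have an entry in the RefSeq promoter table (build GRCm38.p6), which are Pdyn and Oprd1. For Pdyn the table lists 2 starts, and the start farther upstream is shown. The windows are shown because the precursor and the receptor were higher in the same region while their upstream sequences differ. Capitals mark the letters GGGCGG or their reverse CCGCCC, the core of a GC box.
Pdyn, chr2:129699939-129700188, minus strand: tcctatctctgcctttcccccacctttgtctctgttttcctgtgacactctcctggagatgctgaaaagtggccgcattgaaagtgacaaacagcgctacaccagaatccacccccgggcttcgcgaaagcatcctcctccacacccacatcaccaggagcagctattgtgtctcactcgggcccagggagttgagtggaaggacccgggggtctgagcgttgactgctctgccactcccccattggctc
Oprd1, chr4:132144487-132144736, minus strand: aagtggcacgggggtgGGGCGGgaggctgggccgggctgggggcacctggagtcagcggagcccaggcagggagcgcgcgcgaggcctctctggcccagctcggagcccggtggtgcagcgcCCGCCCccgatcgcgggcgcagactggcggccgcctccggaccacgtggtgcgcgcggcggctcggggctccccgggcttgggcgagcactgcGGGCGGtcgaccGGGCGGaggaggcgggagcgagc
The Oprd1 window is 80.0% G and C, above the 90th percentile of 69.2% over all promoters of the table, and holds 4 matches to GGGCGG on either strand, where 32.7% of 32851 promoters hold at least 1. The Pdyn window is 57.2% G and C, near the median of 52.4%, and holds none. The window of the second Pdyn start, chr2:129698659-129698908, is 44.0% G and C and also holds none. These 3 windows held 0 matches, on either strand, to TGACG, which 17.8% of promoters hold, or to TGACGTCA, which 1.55% hold and which always contains the shorter word. They also held 0 matches to TGANTCA (6.75% of promoters). For TATAAA, held by 12.4%, there were again 0. No match says only that these letters are not in this window.

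For each member averaging at least 10 CPM, the 3 genes with the nearest profile over the 8 libraries were found as those with the smallest root mean square difference in log2 CPM, centred on each gene's mean, among genes of at least 10 CPM. The genes nearest Pdyn were Scg2 (0.13), Chn2 (0.14) and Galnt16 (0.15), where the median over all genes was 0.64. Scg2, a secretogranin of the dense core vesicle, measured 489 ± 84.7 CPM (SD, n = 4) in dorsal striatum and 847 ± 66.0 CPM (n = 4) in accumbens. The genes nearest Penk were Ak5 (0.14), Olfm3 (0.17) and Drd2 (0.18), against a median of 0.76. The genes nearest Oprm1 were Phlda1 (0.20), DQ719901 (0.20) and Capn15 (0.21), those nearest Oprk1 were Vps25 (0.12), Eif2s1 (0.14) and AI854703 (0.15), and those nearest Oprl1 were Psmf1 (0.20), Dand5 (0.25) and Siae (0.26). The medians for these receptors were 0.62, 0.48 and 0.72. All genes share the depth and region of these 8 libraries, so the likenesses are descriptions only.

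The genes that make, release and remove the peptides are described by counts beside the background above, where the median log2 fold change over all tested genes was 0.02. Of 10 prohormone processing genes, 0 were called by edgeR, DESeq2 or limma-voom, 1 had an unadjusted p under 0.05 in edgeR, and the median was 0.04. The processing enzymes Pcsk2, a prohormone convertase, and Cpe, carboxypeptidase E, measured 266 ± 27.2 and 257 ± 44.1 CPM in the dorsal libraries (SD, n = 4). In the accumbens libraries they measured 216 ± 27.1 and 281 ± 38.2 CPM (n = 4). Of 9 dense core vesicle genes, 2 were called higher in accumbens and the median was 0.48. These were Scg2, with a log2 fold change of 0.79 ± 0.13 (SE; edgeR adjusted p = 0.00143), and Scg3, with 0.99 ± 0.19 (SE; adjusted p = 0.00456), and both lost their call with glial marker level as a covariate (0.57, adjusted p = 0.156, and 0.93, adjusted p = 0.145). Chgb, a chromogranin, measured 665 ± 202 and 536 ± 100 CPM in the same order and was not called. Of 11 tested genes for peptide degradation, 1 was called, lower in accumbens, and the median was -0.01. This was Mme, neprilysin, which cleaves enkephalins, at 138 ± 31.5 CPM dorsally and 72.3 ± 26.5 CPM in the accumbens libraries (log2 fold change -0.93 ± 0.23, SE; edgeR adjusted p = 0.0235). Mme lost its call in 5 of the 8 fits without a library, with adjusted p up to 0.112.

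Around the receptors, calls went in both directions. Of 12 inhibitory G protein subunits, 2 were called higher and 2 lower in accumbens, with a median of 0.27. Gnao1, the abundant neuronal alpha subunit, measured 1932 ± 78.5 CPM dorsally and 1294 ± 58.0 CPM in the accumbens libraries (log2 fold change -0.58 ± 0.10, SE; edgeR adjusted p = 0.00157). Gnb5, which pairs with RGS proteins, was also lower (-0.82 ± 0.16; adjusted p = 0.00573). Gnai1 was higher, at 399.9 ± 18.9 and 575 ± 33.9 CPM (log2 fold change 0.52 ± 0.11; adjusted p = 0.00982), and so was Gnb4 (0.79 ± 0.18; adjusted p = 0.0190). Gnb4 lost its call in 3 of the 8 fits without a library. With the glial covariate edgeR called 0 of the 12, while Gnao1 was at -0.52 (adjusted p = 0.063), Gnai1 at 0.51 (0.169), Gnb5 at -0.52 (0.440) and Gnb4 at 0.61 (0.496). Of 10 tested receptor effectors (potassium and calcium channels and adenylyl cyclases), 1 was called, Adcy1, lower in accumbens (-0.74 ± 0.19; adjusted p = 0.0408), and it lost its call in 6 of the 8 fits without a library.

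Of 15 tested genes of receptor desensitization and trafficking, 2 were called lower and 1 higher in accumbens. Rgs4, which speeds the shutdown of inhibitory G proteins, measured 1120 ± 137 CPM (SD, n = 4) in dorsal striatum and 356 ± 45.7 CPM (n = 4) in accumbens, a log2 fold change of -1.65 ± 0.13 (SE; edgeR adjusted p = 1.23e-06). Rgs9, whose striatal form dampens mu receptor signalling, measured 447 ± 35.2 and 263 ± 16.2 CPM (-0.77 ± 0.12; adjusted p = 0.000785). Both were called under each of the 17 alternatives. Adrbk1, a receptor kinase, was higher (0.91 ± 0.23; adjusted p = 0.0318) and lost its call under 9 of the 17.

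Of 6 further receptors and ligands related to the opioid system, 2 were called lower in accumbens and 0 higher, with a median of -0.15. Gpr139, an orphan receptor known to oppose mu receptor signalling, measured 17.6 ± 3.06 CPM in dorsal striatum (SD, n = 4) and 0.684 ± 1.04 CPM in accumbens (n = 4), a log2 fold change of -4.69 ± 0.73 (SE; edgeR adjusted p = 0.00082), called under each of the 17 alternatives. Its accumbens libraries ran from 0.158 to 2.24 CPM. All but the highest lay under 0.237 CPM, the lowest level that 3 reads give in an accumbens library. The accumbens mean thus rested on a single library, and the size of this fold is uncertain. Ogfrl1, related to the opioid growth factor receptor, was also called (-0.61 ± 0.14; adjusted p = 0.0169) and lost its call in 3 of the 8 fits without a library. Of 11 transcription factors and repressors that act on precursor genes, among them Atf2 and Kcnip3, 0 were called by edgeR, DESeq2 or limma-voom, 2 had an unadjusted p under 0.05 in edgeR, and the median was 0.13. The lists hold genes that share cells and libraries with the opioid genes. The astrocyte marker sums given above overlapped only between dorsal library 2, at 484.3 CPM, and accumbens library 4, at 483.8 CPM. The 9 oligodendrocyte markers summed to 124 to 199 CPM in dorsal striatum and to 129 to 333 CPM in accumbens, which also overlapped, and 0 of 6 tested were called by edgeR. The 9 microglia markers had few reads and only 1 was tested and not called. They summed to 0.985 to 4.35 CPM in dorsal striatum and to 4.80 to 17.3 CPM in accumbens, without overlap.

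**Figure D5:**
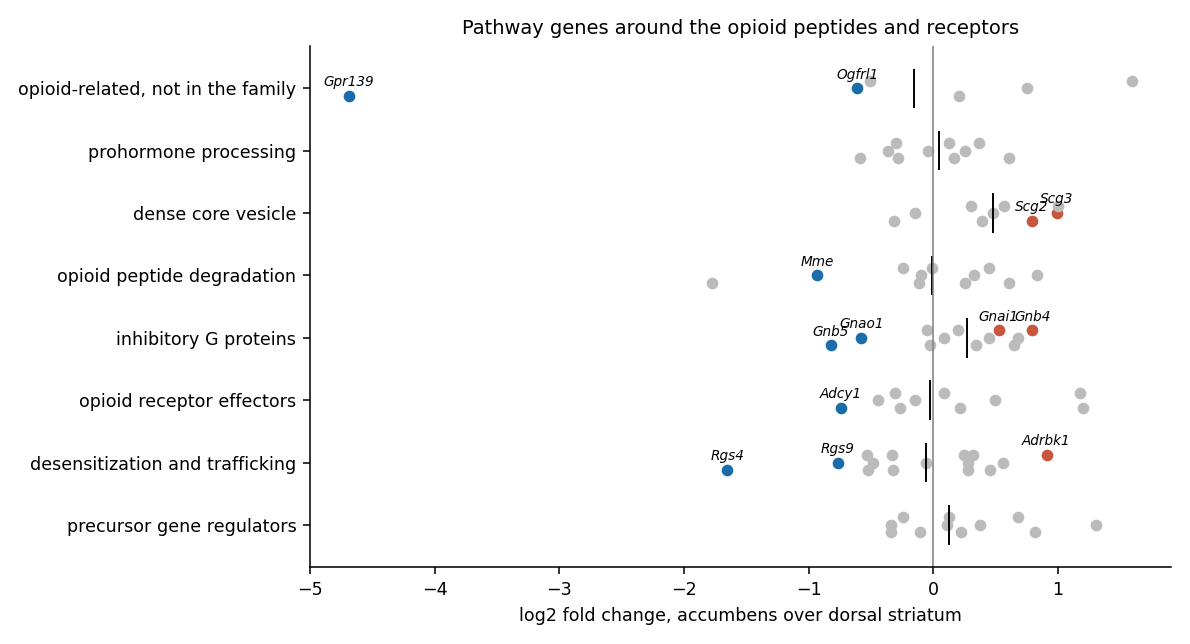
Log2 fold change of accumbens over dorsal striatum for each tested gene of the 8 lists around the opioid genes, with called genes coloured and named, other genes grey, and a bar at the median of each list. Gpr139 at -4.69 and Rgs4 at -1.65 are the lowest called genes.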

How the data were processed

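Ribosome-bound RNA of 8 libraries was analysed, 4 per region by sample title. The authors deposited raw counts, as whole numbers for each gene symbol, with no normalization. Their tools were STAR 2.0.0e and HTSeq with the mouse build mm10, per the submitters' processing notes. The annotation, strand setting and read filters are not given in the sources used here. Reads not assigned to a gene and 1 row without a gene name were left out. The unassigned share was 27.1% to 33.8% of a library in dorsal striatum and 35.5% to 40.6% in accumbens, without overlap. Its part in the region differences was not tested.

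Regions were compared with edgeR 4.0.16 (R 4.3.3; quasi-likelihood test, TMM, filterByExpr with a minimum count of 10, region as the only term), with Benjamini-Hochberg adjustment over 12467 genes and calls at 0.05. CPM was computed on TMM-scaled library sizes, and the log2 profiles with a prior count of 2. Ratios added 0.5 CPM to each value. The code was tested on simulated data. Alternatives were other normalizations and filters, DESeq2 1.42.0, limma-voom (limma 3.58.1), a replicate block, a covariate of glial markers, and leaving out libraries. Intervals on counts of 0 cover counting error only. Coordinates are 1-based.

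The members and lists were chosen with earlier results of these data known. A few genes of the lists are not reported here and were left out of list counts and sums. Genes named beside the members are the class markers, up to 4 called genes of the largest change and up to 2 of the highest level per list, the nearest profiles, and genes on which a result turns.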

Additional observations from a re-analysis of the deposited data

Results flagged for a closer look

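In 22 sets of 4 libraries (the 6 members tested and the 5 ratios, in each region), the gap of the highest or lowest library to its neighbour was set against the whole range of the set, and in 5 sets a library stood apart. By chance about 1 set in 20 would. Penk was 779 CPM in accumbens library 1, above the other 3 accumbens libraries. Oprd1 was 36.2 CPM in accumbens library 2, where the others were at most 9.69 CPM. Oprk1 was 72.0 CPM in dorsal striatum library 4, while the other 3 lay between 47.6 and 48.1 CPM. The log2 ratio of Pdyn to Tac1 was -0.93 in dorsal striatum library 4, the lowest of its region. The log2 ratio of Penk to Adora2a was 5.18 in dorsal striatum library 3, the highest of its region.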

How the results depend on the processing

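Pdyn and Penk kept their direction and call under all 17 alternatives, Pdyn between 0.909 and 1.10 and Penk between 1.15 and 1.34 on the log2 scale when 1 library was left out. Leaving out 1 library gave 0.60 to 1.05 for Oprm1, 1.86 to 3.19 for Oprd1, -0.265 to 0.0994 for Oprk1 and 0.0866 to 0.544 for Oprl1. Oprm1 was called with limma-voom (0.908). Oprd1 lost its call with limma-voom (1.96, adjusted p = 0.0776), with the glial covariate (2.02) or without both accumbens library 2 and dorsal library 3 (1.64, adjusted p = 0.219). Oprk1 changed sign with the glial covariate (0.0535), without dorsal library 4 (0.091) and without accumbens library 3 (0.0994), and Oprl1 with the glial covariate (-0.181), none of them called; the causes were not tested. With no low-count filter the 464 calls (200 higher in accumbens, 264 in dorsal striatum) became 696 (350 and 346). They became 763 with DESeq2 and 119 with the glial covariate, whose level ran from -0.997 to 0.404 in dorsal striatum and from 0.0295 to 0.737 in accumbens, and 324 to 411 when 1 library, and so some power, was left out. The ratio of Penk to Adora2a changed sign with a pseudocount of 2 CPM (0.0829), without dorsal library 3 (0.038), accumbens library 2 (0.0051) or accumbens library 4 (0.0393). Without 1 library the ratio differences ran from 1.35 to 1.64 (Pdyn to Drd1), 0.85 to 1.06 (Pdyn to Tac1), 0.08 to 0.23 (Penk to Drd2), -0.20 to 0.04 (Penk to Adora2a) and -0.39 to -0.14 (Pdyn to Penk), where 3 against 4 libraries cannot give an exact permutation p under 0.0571. With the replicate number as a block, 432 genes were called, Pdyn gave 1.03, Penk 1.28, Oprm1 0.787, Oprd1 2.66, Oprk1 -0.109 and Oprl1 0.159 with no member's call changed, and sign flips over the pairs cannot give a ratio p under 0.125. Same-numbered libraries deviated together no more than differently numbered ones (r from -0.0811 to 0.014 against -0.13 to 0.111). With so few libraries this cannot decide whether both regions came from the same mice. The labels do not say that numbers mark shared animals, and the numbers are not taken as pairs. Depth limits Pnoc and Pomc, Oprd1 in dorsal striatum and Gpr139 in accumbens.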
